A study of Mus musculus with 11 samples.

Results

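Peroxisome biogenesis and peroxisomal oxidation were followed through 28 genes in RNA sequencing of mouse hearts. The genes were chosen by symbol for their known roles in building the peroxisome and in its lipid metabolism, with earlier results of these data known. All 28 were found among the 55487 gene identifiers of the deposited count table, and all 28 passed the low-count filter, as did 23779 genes in all. Female C57BL/6NTac mice, an inbred strain, were 8 weeks old when the diets began and were followed for 24 weeks. The cocktail group (3 libraries) was fed an obesogenic diet and, after week 16, was gavaged on 3 days of each week with a mixture of 5 mg/kg dasatinib, which inhibits tyrosine kinases, and 50 mg/kg quercetin, a flavonoid from plants, in 10% PEG400. The mixture is used to remove senescent cells. The obese group (4 libraries) had the same diet and was gavaged with the PEG400 vehicle. That diet was a chow with 60.3% of its energy from fat and 21.3% from carbohydrate, plus sweetened condensed milk with 55% sugar. The control-diet group (4 libraries) ate a diet with 10.4% of its energy from fat and 69.1% from carbohydrate. The labels do not say whether this group received vehicle. Diet and vehicle can therefore not be told apart between obese and control-diet hearts.

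Peroxisomes are small organelles with a single membrane that shorten very long-chain and branched fatty acids, make the first intermediates of ether lipids and break down the hydrogen peroxide released by their oxidases. They have no DNA, so every enzyme is made in the cytosol and carried in by receptors and membrane proteins called peroxins. In the heart, which draws most of its energy from fatty acids, the shortened acyl chains are handed to mitochondria as carnitine esters.

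Values are CPM, a gene's counts relative to the library size, with library sizes scaled by the trimmed mean of M values (TMM), and a call is a Benjamini-Hochberg adjusted p under 0.05 from edgeR's quasi-likelihood test over all genes tested. Libraries held 64.2 to 72.3 M counts in the cocktail group, 52.7 to 67.2 M in the obese group and 73.1 to 103.3 M in the control-diet group. Cardiomyocyte markers, 7 genes, summed to 80878 to 93286 CPM in cocktail hearts, 72564 to 93945 CPM in obese hearts and 75117 to 101405 CPM in control-diet hearts, so the tissue label matched its defining genes. In obese against control-diet hearts 2 of the 7 were called lower, Myl2 (-0.84, adjusted p = 0.0240, edgeR) and Tnnt2 (-0.41, adjusted p = 0.0442, edgeR), and 0 higher. The 6 atrial markers summed to 47.2, 2712 and 5633 CPM in cocktail replicates 1 to 3, to 17.2, 135, 2116 and 199 CPM in obese replicates 1 to 4, and to 32.6 to 97.9 CPM in control-diet hearts. Cocktail replicates 2 and 3 and obese replicate 3 stood apart in this. The 7 adipocyte markers summed to 1.20 to 11.2 CPM in cocktail hearts, 0.668 to 9.34 CPM in obese hearts and 0.425 to 0.765 CPM in control-diet hearts, and 4 of them were higher in obese than in control-diet hearts. The 4 endothelial markers summed to 512 to 544 CPM in cocktail hearts, 519 to 615 CPM in obese hearts and 699 to 824 CPM in control-diet hearts, and 2 of them were lower in obese hearts. The 4 lymphocyte markers summed to 1.55 to 2.52 CPM in cocktail hearts, 1.25 to 2.47 CPM in obese hearts and 4.37 to 6.74 CPM in control-diet hearts, and 1 of them was lower in obese hearts. Brown adipocyte markers, 4 genes, summed to 7.39 to 11.9, 6.16 to 14.8 and 10.4 to 17.1 CPM in cocktail, obese and control-diet hearts. In obese hearts 1 was higher and 1 lower. Hepatocyte markers, 6 genes, summed to 1.08 to 14.0, 0.257 to 1.36 and 0.733 to 1.36 CPM in the same order. Of these, 1 was lower in obese hearts. For fibroblast, macrophage and erythroid markers, obese and control-diet sums overlapped, and 1 fibroblast marker was higher in obese hearts. No marker of these lists was at 0 in all libraries. Their part in the results was not tested. In RNA from heart tissue, fewer cells of a type and less RNA per cell cannot be told apart.

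Peroxisomal transcripts were mostly lower in obese than in control-diet hearts. Of the 28 genes, 16 fell and 0 rose, and 12 did not pass the test. Among all genes tested, 15.7% were called lower and 14.4% higher in this comparison, 30.1% in all. The median log2 fold change of the 28 was -0.46, against 0.11 over all genes, and 25 of the 28 lay below 0, as did 43.2% of all genes. Libraries of the 2 groups did not overlap for 13 genes that were lower in obese hearts (background 14.7%) and for 1, Far1, that was higher (background 13.8%). The genes that fell included 6 of 12 peroxins, 4 of 7 enzymes of beta-oxidation and 1 of 2 transporters. The others were Phyh of alpha-oxidation, the racemase Amacr, both carnitine acyltransferases and 1 of 3 genes of ether lipid synthesis. Summed over the 28 genes, the level was 1424, 1334 and 1142 CPM in cocktail replicates 1 to 3, 1284, 1026, 1113 and 1453 CPM in obese replicates 1 to 4 and 1861, 1492, 1756 and 1924 CPM in control-diet replicates 1 to 4. Every obese and every cocktail sum lay below every control-diet sum.

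**Figure D1:**
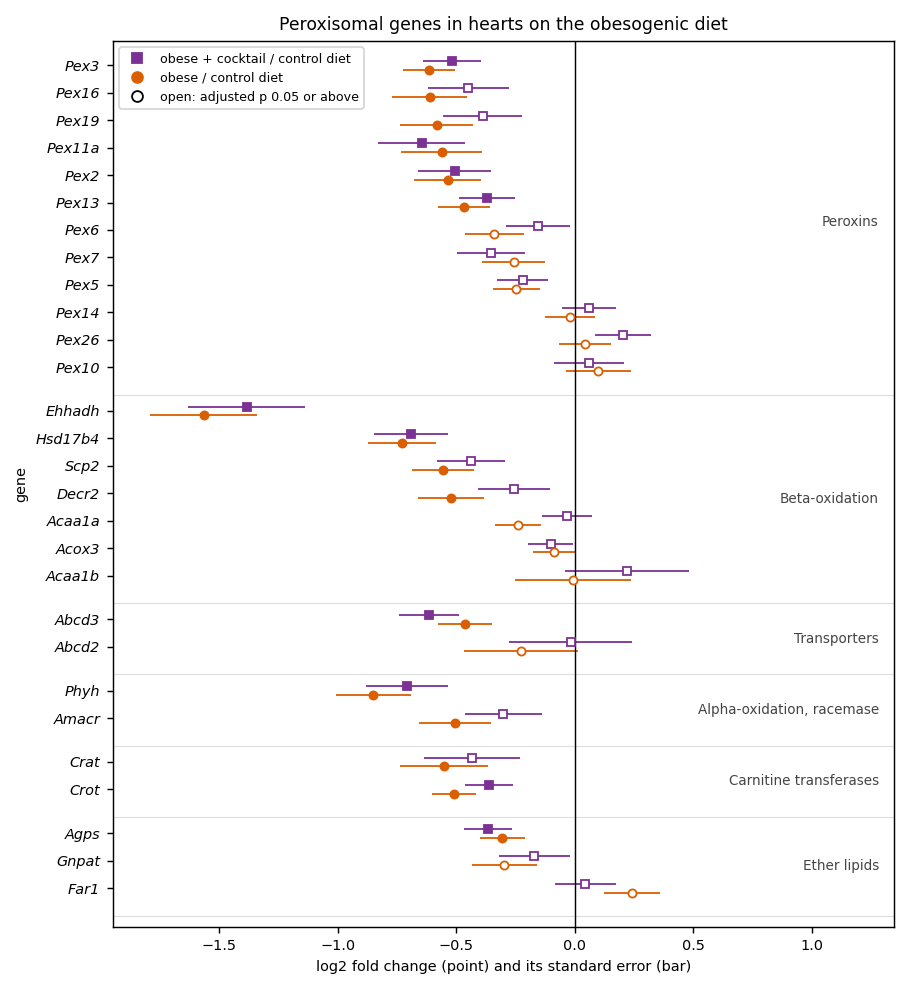
Log2 fold change (point) and its standard error (bar) of each of the 28 genes, by role, for cocktail-treated obese against control-diet hearts (squares) and obese against control-diet hearts (circles). Open symbols did not pass an adjusted p of 0.05, both comparisons share the control-diet libraries, and Ehhadh lies farthest to the left in both.

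Scaling bears on these counts. With library totals alone as the scaling, the median over all genes moved to 0.53. Of the 23779 genes tested, 10021 were then called, 9061 of them higher in obese hearts. Of the 28 genes, 4 were called higher and 3 lower. The median of the 28 minus that of all genes was -0.57, as it was with TMM. The share of counts in genes annotated as sense-intronic or as TEC, an unspliced class, was 0.663% to 0.811% in obese libraries and 0.286% to 0.590% in control-diet libraries. With this share as a covariate, 0 of the 28 genes and 121 of all genes were called, and the median of the 28 minus that of all genes was -0.15. The share of counts in mitochondrial genes was 17.8% to 22.4% in cocktail libraries, 21.4% to 24.5% in obese libraries and 28.2% to 32.3% in control-diet libraries. Neither share overlapped between obese and control-diet libraries, so these shares and the diet cannot be told apart here. Without obese replicate 3 and cocktail replicates 2 and 3, the libraries with the most atrial markers, 12 of the 28 genes fell in obese hearts and 0 rose. Over all genes, 6165 of the 25479 tested in that fit were called between obese and control-diet hearts, 2884 of them higher in obese hearts.

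**Figure D2:**
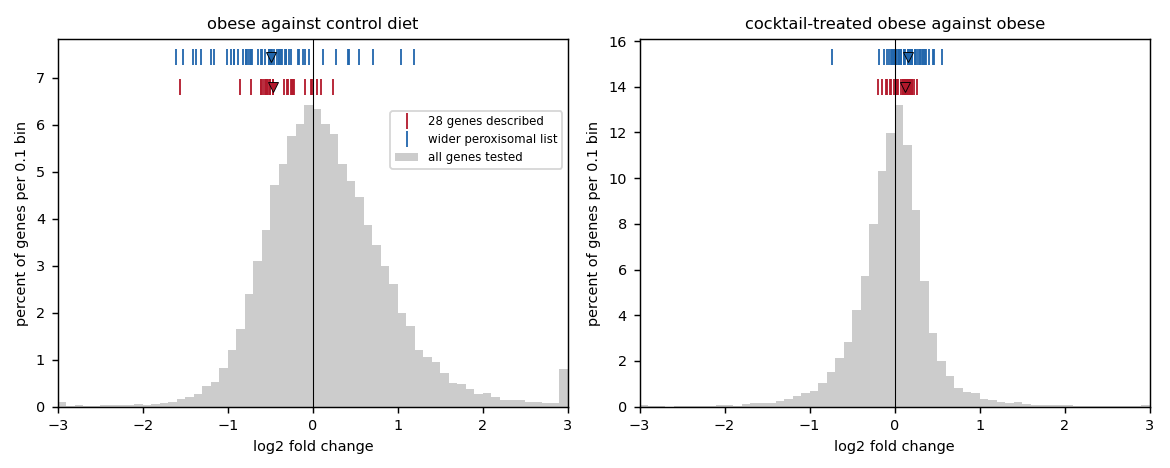
Distribution of log2 fold changes over all genes tested (grey bars, percent of genes per bin of 0.1; the outermost bins hold everything beyond 3 in either direction), for obese against control-diet hearts on the left and cocktail-treated obese against obese hearts on the right. Red ticks are the 28 genes, blue ticks a wider list of peroxisomal genes, and triangles their medians, which for the 28 genes lie at -0.46 on the left and 0.12 on the right.

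Promoters are shown for the 2 genes with the largest falls, Ehhadh and Phyh, and for the 2 whose log2 fold change was nearest to 0, Acaa1b and Pex14, to set the start regions of both kinds side by side. Each window runs from 250 bases before to 50 bases after the RefSeq transcription start (RefSeq, build GRCm38.p6), 5′ to 3′ on the gene's strand. Capitals mark AGGTCA, the core site bound by nuclear receptors such as PPARα with RXR, GGGCGG, the GC box, and CCAAT, each on either strand.
Ehhadh, chr16:21787785-21788084, minus strand: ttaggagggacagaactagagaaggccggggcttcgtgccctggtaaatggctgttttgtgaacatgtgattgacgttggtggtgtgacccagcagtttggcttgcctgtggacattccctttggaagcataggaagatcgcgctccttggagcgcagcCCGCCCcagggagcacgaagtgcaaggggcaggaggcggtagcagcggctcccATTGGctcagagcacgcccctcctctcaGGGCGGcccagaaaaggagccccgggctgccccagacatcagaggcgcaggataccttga
Phyh, chr2:4918746-4919045, plus strand: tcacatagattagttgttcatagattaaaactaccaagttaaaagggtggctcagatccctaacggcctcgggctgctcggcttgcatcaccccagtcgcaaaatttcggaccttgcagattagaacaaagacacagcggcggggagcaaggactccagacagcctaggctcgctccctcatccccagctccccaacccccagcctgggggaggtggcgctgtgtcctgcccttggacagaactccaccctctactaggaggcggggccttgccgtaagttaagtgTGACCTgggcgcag
Acaa1b, chr9:119157044-119157343, minus strand: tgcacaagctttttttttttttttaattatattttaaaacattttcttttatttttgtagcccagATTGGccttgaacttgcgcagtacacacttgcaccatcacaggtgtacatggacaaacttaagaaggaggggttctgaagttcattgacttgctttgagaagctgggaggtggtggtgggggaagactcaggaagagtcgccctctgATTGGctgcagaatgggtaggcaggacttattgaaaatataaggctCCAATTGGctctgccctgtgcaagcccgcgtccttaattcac
Pex14, chr4:149099794-149100093, minus strand: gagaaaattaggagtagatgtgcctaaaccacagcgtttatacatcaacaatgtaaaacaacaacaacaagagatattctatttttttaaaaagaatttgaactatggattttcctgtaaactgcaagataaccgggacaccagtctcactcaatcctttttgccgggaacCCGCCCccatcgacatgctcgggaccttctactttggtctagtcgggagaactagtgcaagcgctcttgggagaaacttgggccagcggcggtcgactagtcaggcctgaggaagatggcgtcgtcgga

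The Ehhadh window held 2 GC boxes and 1 CCAAT, the Phyh window 1 AGGTCA, the Acaa1b window 4 CCAAT matches, of which 2 overlap on opposite strands, and the Pex14 window 1 GC box. Windows were found for 22 of the 28 genes. Some genes have more than 1 start, which makes 26 windows. GGGCGG stood in 18 of the 26 windows, from 17 genes, against 35.7% of all 32851 windows in the table, and the median GC content was 60% in the members' windows and 52.7% in all. CCAAT stood in 10 of the 26, against 37.4% of all windows. AGGTCA stood in 2 of the 26, those of Phyh and Scp2, against 16.3% of all windows, and the direct repeat AGGTCANAGGTCA in 0 of the 26, against 0.0396% of all windows. These are matches of letters in one window per start and carry no statement on binding.

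Peroxins of the membrane come first in assembly. Pex3, Pex16 and Pex19 place proteins in the peroxisomal membrane, with Pex19 as the carrier and Pex3 as its dock. Pex3 was at 9.40, 10.7 and 10.6 CPM in cocktail hearts, 8.61, 9.02, 10.8 and 9.91 CPM in obese hearts and 15.6, 13.2, 14.1 and 15.8 CPM in control-diet hearts. Every obese and cocktail library lay below every control-diet library, and Pex3 fell in obese hearts (log2 fold change -0.61, SE 0.11, adjusted p = 0.00182, edgeR). For Pex16 the values were 7.10, 4.42 and 4.46 CPM in cocktail hearts, 5.02, 4.46, 4.67 and 4.87 CPM in obese hearts and 7.13, 6.78, 7.91 and 7.22 CPM in control-diet hearts. The obese libraries were all below the control-diet ones (-0.61, SE 0.16, adjusted p = 0.0117, edgeR), while cocktail replicate 1 stood among the control-diet libraries and replicates 2 and 3 at or below the lowest obese library. Pex19 stood at 48.9, 57.6 and 43.1 CPM in cocktail hearts, 39.7, 37.9, 43.1 and 53.6 CPM in obese hearts and 76.9, 48.4, 68.6 and 67.2 CPM in control-diet hearts. It fell in obese hearts (-0.58, SE 0.15, adjusted p = 0.0132, edgeR), although obese replicate 4 was above control-diet replicate 2.

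Matrix enzymes enter through the docking proteins Pex13 and Pex14, and the import receptor is recycled with the help of the ubiquitin ligases Pex2 and Pex10. Pex13 was measured at 10.8, 13.5 and 11.9 CPM in cocktail hearts, 10.8, 11.3, 10.8 and 12.3 CPM in obese hearts and 15.6, 13.7, 15.8 and 17.3 CPM in control-diet hearts. All obese values were below all control-diet values (-0.47, SE 0.11, adjusted p = 0.00716, edgeR). Pex2 was at 8.59, 11.3 and 9.97 CPM in cocktail hearts, 9.20, 8.13, 10.1 and 11.6 CPM in obese hearts and 13.8, 11.9, 14.8 and 16.1 CPM in control-diet hearts. The lowest control-diet library was just above the highest obese one, and Pex2 fell in obese hearts (-0.54, SE 0.14, adjusted p = 0.0127, edgeR). Their partners did not pass the test: Pex14 averaged 17.6 ± 0.467 CPM in cocktail hearts (SD, n = 3), 16.6 ± 2.08 CPM in obese hearts and 16.8 ± 1.19 CPM in control-diet hearts (SD, n = 4 each), and its log2 fold change in obese hearts was -0.02 (SE 0.11). Pex14 shares 28.3% of its exon length with Gm17029 on the opposite strand, which averaged 9.08 CPM in cocktail hearts, 9.76 CPM in obese hearts and 4.38 CPM in control-diet hearts and rose in obese hearts (1.16, adjusted p = 0.00143, edgeR); as no label or header states strand-specific counting, reads of the pair cannot be told apart. Pex10 averaged 12.5 ± 1.53 CPM in cocktail hearts, 12.8 ± 2.36 CPM in obese hearts and 12.0 ± 0.776 CPM in control-diet hearts, with overlapping groups.

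Pex11a, which elongates the peroxisomal membrane before division, was at 11.9, 10.4 and 7.74 CPM in cocktail hearts, 10.8, 8.57, 10.0 and 13.1 CPM in obese hearts and 17.5, 12.0, 16.2 and 17.0 CPM in control-diet hearts. It fell in obese hearts (-0.56, SE 0.17, adjusted p = 0.0247, edgeR), with obese replicate 4 above control-diet replicate 2, and this call was lost in 6 of the 11 fits that left out 1 library. Those were the fits without control-diet replicate 1, 3 or 4 and without obese replicate 1, 2 or 3, with a largest adjusted p of 0.0723.

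The remaining 4 peroxins are listed by group means. Pex5, the receptor for the C-terminal targeting signal, averaged 13.3 ± 0.431 CPM in cocktail hearts, 13.1 ± 1.07 CPM in obese hearts and 15.5 ± 1.20 CPM in control-diet hearts (-0.25, adjusted p = 0.0784, edgeR). Pex7, the receptor for the N-terminal signal, averaged 18.1 ± 3.0 CPM in cocktail hearts, 19.3 ± 2.77 CPM in obese hearts and 23.1 ± 2.51 CPM in control-diet hearts (-0.26, adjusted p = 0.158, edgeR). Obese and control-diet libraries overlapped for both receptors, while the cocktail libraries of Pex5 all lay below the control-diet ones, and without control-diet replicate 2 Pex5 was called lower (adjusted p = 0.0276, edgeR). Pex6, an ATPase that pulls the receptor back out, averaged 36.1 ± 6.22 CPM in cocktail hearts, 31.7 ± 4.72 CPM in obese hearts and 40.1 ± 1.75 CPM in control-diet hearts; all obese libraries lay below all control-diet ones, yet the adjusted p was 0.0547 (edgeR), and 0.0332, 0.0496 and 0.0326 without obese replicate 1, obese replicate 4 and cocktail replicate 1. Pex26, which anchors Pex6 at the membrane, averaged 8.50 ± 0.0420 CPM in cocktail hearts, 7.61 ± 0.792 CPM in obese hearts and 7.37 ± 0.217 CPM in control-diet hearts and did not pass the test (0.04 in obese against control-diet hearts, SE 0.11).

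**Figure D3:**
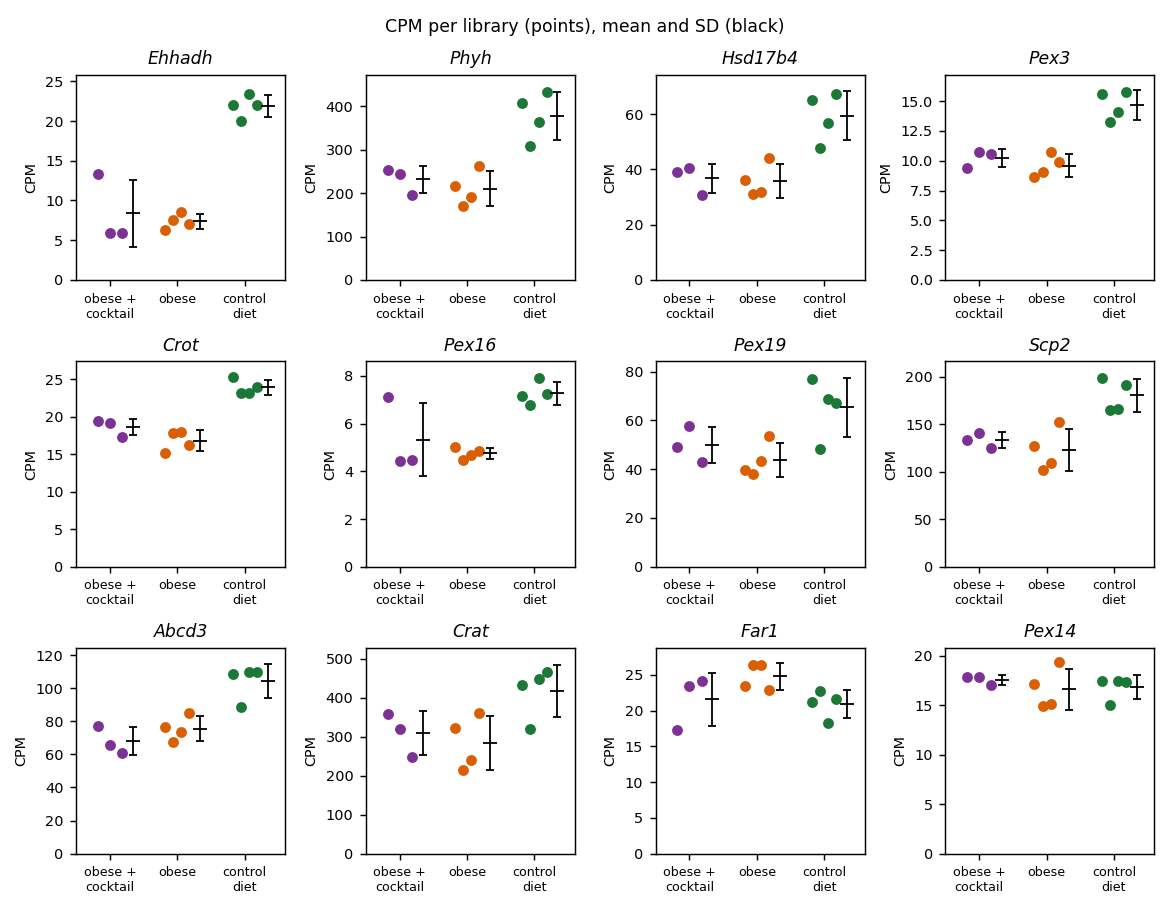
CPM of 12 of the genes in each library (points), with the mean and SD of each group (black), for cocktail-treated obese, obese and control-diet hearts from left to right. For Ehhadh all obese points lie below 10 CPM and all control-diet points above 20 CPM, while the obese points of Far1 lie above the control-diet points and those of Pex14 overlap them.

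Beta-oxidation held the largest fall of all 28 genes. Ehhadh (ENSMUSG00000022853, chr16:21761287-21787807, GRCm38), the L-bifunctional enzyme that hydrates and dehydrogenates straight chains and dicarboxylic acids, was at 13.3, 5.97 and 5.90 CPM in cocktail hearts, 6.28, 7.58, 8.61 and 7.05 CPM in obese hearts and 22.0, 20.1, 23.4 and 22.0 CPM in control-diet hearts. All 4 obese libraries and all 3 cocktail libraries lay below all 4 control-diet libraries, and cocktail replicate 1 stood above every obese library. Ehhadh was 2.96-fold lower in obese hearts (log2 fold change -1.57, SE 0.23, adjusted p = 0.000578, edgeR). Hsd17b4, the D-bifunctional enzyme that carries out the same steps on branched and very long chains, was at 39.0, 40.4 and 30.9 CPM in cocktail hearts, 36.1, 31.1, 31.9 and 44.3 CPM in obese hearts and 65.1, 47.9, 56.9 and 67.4 CPM in control-diet hearts. Its obese libraries were also all below the control-diet ones, and it fell in obese hearts (-0.73, SE 0.14, adjusted p = 0.00292, edgeR).

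Scp2, which encodes a thiolase for branched chains and a sterol carrier, was at 134, 141 and 125 CPM in cocktail hearts, 127, 102, 109.8 and 152 CPM in obese hearts and 199, 166, 166 and 191 CPM in control-diet hearts. All obese libraries were below all control-diet libraries (-0.56, SE 0.13, adjusted p = 0.00725, edgeR). Decr2, a reductase for chains with double bonds, was at 8.95, 9.77 and 8.35 CPM in cocktail hearts, 7.29, 7.14, 6.70 and 8.87 CPM in obese hearts and 11.1, 8.86, 9.98 and 13.2 CPM in control-diet hearts. Decr2 fell in obese hearts (-0.52, SE 0.14, adjusted p = 0.0146, edgeR), with obese replicate 4 level with control-diet replicate 2.

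The other enzymes of beta-oxidation did not pass the test. Acaa1a, the thiolase of the last step, was at 30.5, 26.4 and 26.0 CPM in cocktail hearts, 25.0, 21.6, 22.9 and 26.5 CPM in obese hearts and 26.0, 29.8, 28.8 and 28.6 CPM in control-diet hearts. Obese replicate 4 overlapped the control-diet range (-0.24, SE 0.10, adjusted p = 0.0793, and 0.0392 without that library, edgeR). Acaa1b, its close copy, averaged 0.874 ± 0.209 CPM in cocktail hearts, 0.744 ± 0.0364 CPM in obese hearts and 0.747 ± 0.165 CPM in control-diet hearts, and reads of so similar a pair may be split between them by the counting. Acox3, an oxidase for branched chains, averaged 31.7 ± 2.35 CPM in cocktail hearts, 31.9 ± 1.26 CPM in obese hearts and 33.96 ± 2.45 CPM in control-diet hearts, the log2 fold change in obese hearts being -0.09 (SE 0.09).

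Of the transporters that bring acyl chains through the membrane, Abcd3 takes in branched and dicarboxylic chains and Abcd2 very long and polyunsaturated ones. Abcd3 was at 77.4, 65.8 and 60.6 CPM in cocktail hearts, 76.5, 67.3, 73.3 and 85.1 CPM in obese hearts and 108, 88.8, 109.6 and 109.6 CPM in control-diet hearts. Every obese and cocktail library lay below every control-diet library (obese: -0.46, SE 0.11, adjusted p = 0.00958, edgeR). Abcd2 averaged 5.42 ± 0.371 CPM in cocktail hearts, 4.69 ± 1.94 CPM in obese hearts and 5.48 ± 1.18 CPM in control-diet hearts and was not called (-0.23, adjusted p = 0.501, edgeR). Its obese SD came from replicate 3 at 7.57 CPM, with the other obese libraries at 3.43 to 3.93 CPM, and without that library Abcd2 was called lower (-0.56, adjusted p = 0.0381, edgeR).

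Phyh (ENSMUSG00000026664, chr2:4919019-4938730, GRCm38), the hydroxylase that opens alpha-oxidation of phytanic acid, had the second largest fall. It was at 254, 245 and 196 CPM in cocktail hearts, 217, 169.6, 190.0 and 262 CPM in obese hearts and 408, 308, 363 and 433 CPM in control-diet hearts. All obese and cocktail libraries lay below all control-diet libraries, and Phyh was 1.80-fold lower in obese hearts (-0.85, SE 0.16, adjusted p = 0.00206, edgeR). Amacr, the racemase that turns branched chains into the form the oxidases accept, was at 10.7, 12.4 and 9.18 CPM in cocktail hearts, 10.5, 8.00, 8.42 and 10.5 CPM in obese hearts and 13.4, 10.9, 12.4 and 16.3 CPM in control-diet hearts. All obese libraries were below all control-diet libraries (-0.51, SE 0.15, adjusted p = 0.0233, edgeR), and the call was lost in 4 fits, those without control-diet replicate 1 or 4 or obese replicate 2 or 3, with a largest adjusted p of 0.0740.

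Crot moves shortened acyl chains onto carnitine, and Crat, which is also found in mitochondria, does so for acetyl groups. Crot was at 19.4, 19.1 and 17.4 CPM in cocktail hearts, 15.1, 17.9, 18.02 and 16.2 CPM in obese hearts and 25.3, 23.2, 23.2 and 24.0 CPM in control-diet hearts. The obese and cocktail libraries were all below the control-diet ones, with little spread within groups (obese: -0.51, SE 0.09, adjusted p = 0.00192, edgeR). Crat was at 359, 318 and 248 CPM in cocktail hearts, 322, 213, 241 and 361 CPM in obese hearts and 432, 319, 449 and 466 CPM in control-diet hearts. Its obese and control-diet libraries overlapped through control-diet replicate 2, and the call (-0.55, SE 0.19, adjusted p = 0.0398, edgeR) was lost in 7 of 11 fits without 1 library, namely control-diet replicate 1, 3 or 4, obese replicate 1, 2 or 3 or cocktail replicate 2, with a largest adjusted p of 0.104.

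Ether lipid synthesis opens with Gnpat and Agps, while Far1 makes the fatty alcohol that Agps puts in. Agps was at 27.7, 30.7 and 28.4 CPM in cocktail hearts, 30.0, 27.6, 30.1 and 32.8 CPM in obese hearts and 36.1, 37.4, 33.7 and 42.0 CPM in control-diet hearts. All obese and cocktail libraries lay below all control-diet ones (obese: -0.31, SE 0.09, adjusted p = 0.0269, edgeR), and the adjusted p was 0.0765, 0.0601 and 0.0743 without control-diet replicate 4, obese replicate 1 and obese replicate 2. With library totals as the only scaling, its log2 fold change was 0.12. Far1 was at 17.3, 23.4 and 24.1 CPM in cocktail hearts, 23.5, 26.4, 26.4 and 22.9 CPM in obese hearts and 21.2, 22.7, 18.2 and 21.6 CPM in control-diet hearts. Far1 was the member with the highest log2 fold change, and its obese libraries were all above the control-diet ones, but it was not called (0.24, SE 0.12, adjusted p = 0.138, edgeR). Gnpat averaged 156 ± 20.2 CPM in cocktail hearts, 143 ± 23.9 CPM in obese hearts and 175 ± 18.5 CPM in control-diet hearts and was not called (-0.30, adjusted p = 0.117, and 0.0488 and 0.0480 without control-diet replicate 2 and obese replicate 4, edgeR).

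Per kilobase of exon, the genes spanned a wide range. Phyh was highest at 122 ± 16.3 CPM per kb in cocktail hearts, 111 ± 21.2 in obese hearts and 199.8 ± 29.0 in control-diet hearts, followed by Crat at 57.2 ± 10.4 CPM per kb in cocktail hearts, 52.7 ± 12.8 in obese hearts and 77.3 ± 12.3 in control-diet hearts. Scp2 and Gnpat came next and lay within an SD of each other in control-diet hearts, at 51.9 ± 4.95 and 48.8 ± 5.15 CPM per kb. Acaa1b was lowest in every group, at 0.446 CPM per kb in cocktail hearts, 0.379 CPM per kb in obese hearts and 0.381 CPM per kb in control-diet hearts. Ehhadh held rank 19 of 28 in cocktail hearts and 22 in obese hearts, against rank 9 in control-diet hearts.

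**Figure D4:**
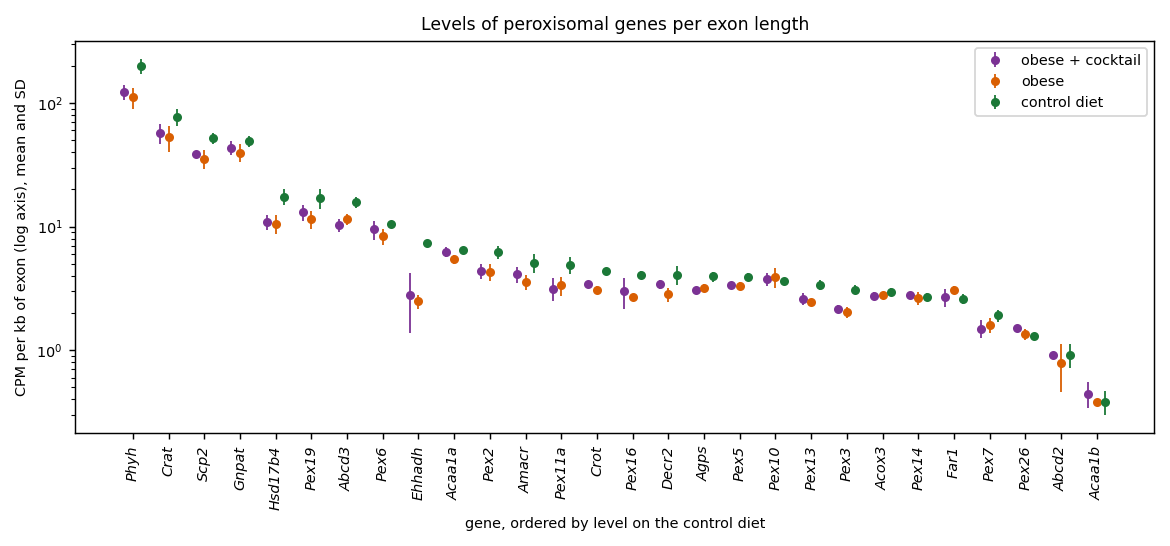
Mean and SD of each gene's level in CPM per kilobase of exon (log axis), ordered by level on the control diet, for cocktail-treated obese, obese and control-diet hearts. Levels run from Phyh at 199.8 to Acaa1b at 0.381 CPM per kb on the control diet, and the Ehhadh points are set apart more than those of its neighbours.

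Ratios of 2 genes in the same library do not depend on library scaling and are given as a description. Ehhadh over Hsd17b4 was 0.341, 0.148 and 0.191 in cocktail hearts, 0.174, 0.243, 0.270 and 0.159 in obese hearts and 0.338, 0.419, 0.411 and 0.326 in control-diet hearts. All obese ratios were below all control-diet ratios, and cocktail replicate 1 stood inside the control-diet range. Phyh over Amacr ran from 19.8 to 23.7 in cocktail hearts, from 20.7 to 25.1 in obese hearts and from 26.5 to 30.5 in control-diet hearts. Pex5 over Pex14 ran from 0.737 to 0.775 in cocktail hearts and from 0.740 to 0.869 in obese hearts. In control-diet hearts it ran from 0.871 to 0.962, so neither pair overlapped the control-diet range. Reads of Pex14 and of Gm17029 on the opposite strand cannot be told apart, which limits the ratio of Pex5 over Pex14. Far1 over Gnpat ran from 0.0975 to 0.174 in cocktail hearts, from 0.136 to 0.220 in obese hearts and from 0.109 to 0.149 in control-diet hearts, and these ranges overlapped. Abcd3 over Abcd2 ran from 11.5 to 13.2 in cocktail hearts, from 9.68 to 21.6 in obese hearts and from 14.9 to 28.2 in control-diet hearts. Crat over Crot ran from 14.3 to 18.5 in cocktail hearts, from 11.9 to 22.2 in obese hearts and from 13.7 to 19.5 in control-diet hearts. Pex19 over Pex3 ran from 4.06 to 5.38 in cocktail hearts, from 4.01 to 5.41 in obese hearts and from 3.65 to 4.94 in control-diet hearts. Obese and control-diet ratios thus overlapped for 4 of the 7 pairs, and the cocktail ratios of Abcd3 over Abcd2 lay below all control-diet ratios.

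**Figure D5:**
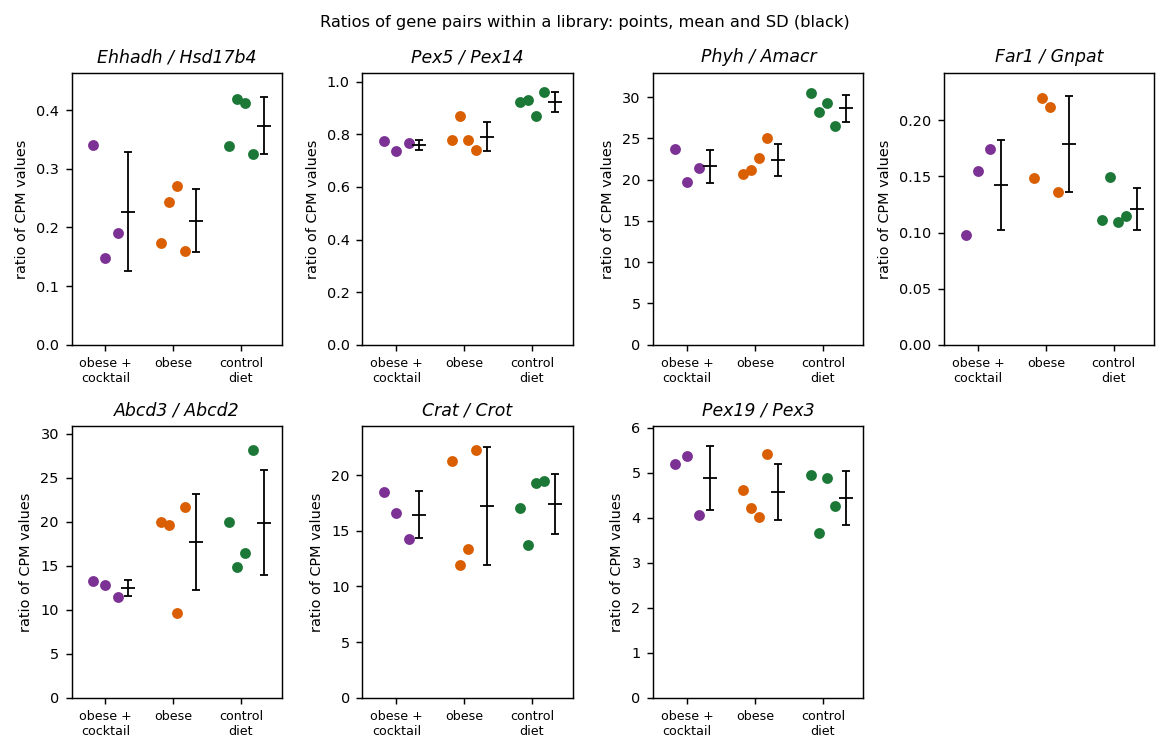
Ratio of the CPM values of 7 gene pairs within each library (points), with mean and SD (black), for cocktail-treated obese, obese and control-diet hearts from left to right. The obese points lie below the control-diet points for the first 3 pairs and overlap them for the other 4.

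The cocktail against vehicle was compared among obese mice. None of the 28 genes was called in cocktail against obese hearts, as was the case for 0% of all genes tested by edgeR, and 0 of the 28 had an unadjusted p under 0.05, against 10.2% of all genes. DESeq2 and limma voom also called 0 of the 28, and over all genes they called 132 and 1. The median log2 fold change of the 28 was 0.12, against -0.01 over all genes, and 21 of the 28 lay above 0, where 50.8% of all genes lay below 0. Among the genes with the smallest p were Acaa1a (0.21, SE 0.10, adjusted p = 0.523), Decr2 (0.27, SE 0.15, adjusted p = 0.557), Far1 (-0.20, SE 0.13, adjusted p = 0.607) and Crot (0.15, SE 0.10, adjusted p = 0.617, all edgeR). Their libraries, given above, overlapped between the groups, as did those of all 28 genes, while 10.1% of all genes had groups that did not overlap. Cocktail replicate 1 departed from replicates 2 and 3 in Ehhadh, Pex16, Pex6 and Far1. The log2 fold change of Ehhadh, 0.18 (SE 0.24), was -0.31 without that library and reached 0.38 when another library was left out. Replicate 1 also had the lowest sum of atrial markers in its group, 47.2 CPM against 2712 and 5633 CPM. Whether the 2 are linked was not tested. The 3 libraries of this group limit what size of difference could be called.

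Against the control diet, cocktail-treated obese hearts had 10 of the 28 genes lower and 0 higher, where 8.39% of all genes were called lower and 7.43% higher, 15.8% in all. The median was -0.36, against 0.05 over all genes, and libraries did not overlap for 12 genes that were lower (background 14.1%) and for Pex26, which was higher (background 13.7%). The 10 were Ehhadh (-1.38, adjusted p = 0.00449), Abcd3 (-0.62, 0.00792), Hsd17b4 (-0.69, 0.0132), Pex3 (-0.52, 0.0147), Phyh (-0.71, 0.0178), Crot (-0.36, 0.0310), Agps (-0.37, 0.0312), Pex11a (-0.65, 0.0340), Pex2 (-0.51, 0.0406) and Pex13 (-0.37, 0.0491), each with its log2 fold change and adjusted p from edgeR, and with library totals as the only scaling the sign turned for Agps (0.06), Crot (0.06) and Pex13 (0.06). All 10 were also among the 16 that fell in obese hearts, and both comparisons share the control-diet libraries. For 13 of those 16 genes the cocktail mean lay between the obese and the control-diet mean, and for 3, Abcd3, Agps and Pex11a, it lay below the obese mean. The 16 were picked for low values in these same obese libraries, which by itself favours a cocktail mean above the obese one. The same share was not taken over all genes, so these counts say nothing about an effect of the cocktail. Ehhadh was called in all 11 fits that left out 1 library. Without cocktail replicate 3 the adjusted p was 0.0557 for Abcd3, 0.0786 for Hsd17b4, 0.0549 for Pex3 and 0.0961 for Phyh, and Phyh was at 0.0507 without control-diet replicate 4. Agps, Pex11a, Pex2, Crot and Pex13 lost the call in 4, 5, 6, 6 and 9 of these fits. Genes called in 1 or more of them but not with all libraries were Pex16 without cocktail replicate 1 (0.0125), Pex19 without control-diet replicate 2 (0.0263) and Scp2 without control-diet replicate 2, obese replicate 2 or obese replicate 4 (0.0291 to 0.0416). The count itself moved: without cocktail replicate 3 only 1 gene was called, and without control-diet replicate 4, 1 or 3 the count was 4, 5 or 6. Calls over all genes fell as well, from 3760 with all libraries to 1011 without cocktail replicate 3. They were 1816, 1857 and 2473 without control-diet replicate 4, 1 and 3, so the drop was not particular to the 28 genes. Without obese replicate 3 and cocktail replicates 2 and 3 together the count was 0, but that fit holds 1 cocktail library, assumed to vary like the other groups, and says little about the cocktail.

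Other genes of the organelle were taken from a wider list of 58 peroxisomal genes that are not among the 28, of which 53 were tested and Slc27a2, Hao1, Hao2, Dao and Agxt were too low to test. In obese against control-diet hearts, 33 of the 53 fell and 3 rose, where 15.7% of all genes were called lower and 14.4% higher, with a median of -0.49 against 0.11 over all genes. Catalase, Cat, which breaks down hydrogen peroxide, was at 153, 159 and 116 CPM in cocktail hearts, 131, 115, 118 and 164 CPM in obese hearts and 434, 321, 396 and 459 CPM in control-diet hearts. The obese libraries were all below the control-diet ones, and Cat was 3.05-fold lower (-1.61, SE 0.16, adjusted p = 6.64e-05, edgeR). The malonyl-CoA decarboxylase Mlycd (-1.53), the epoxide hydrolase Ephx2 (-1.37), Hsdl2 (-1.19), the CoA diphosphatase Nudt7 (-1.004), the enoyl-CoA isomerase Eci2 (-0.93) and the protease Lonp2 (-0.64) fell as well, with adjusted p from 9.86e-05 to 0.000799 (edgeR). Among the genes that rose were Abcd4 (0.71, adjusted p = 0.00532, edgeR) and Far2, a second fatty acyl-CoA reductase (0.54, adjusted p = 0.0284, edgeR), named after their values were seen. The Far2 call was lost without control-diet replicate 1, 3 or 4 and without obese replicate 1 or 2, with adjusted p from 0.0555 to 0.0898. In cocktail against obese hearts 0 of the 53 were called by edgeR, and in cocktail against control-diet hearts 16 fell and 1, Abcd4, rose (0.79, adjusted p = 0.00983, and 0.0612 without cocktail replicate 3, edgeR), where 8.39% of all genes were called lower and 7.43% higher, with a median of -0.31 against 0.05 over all genes.

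A further list held 9 nuclear receptors and coactivators that control peroxisomal genes. In obese against control-diet hearts 1 of the 9 was called lower and 0 higher, where 15.7% of all genes were called lower and 14.4% higher. It was Rxra, the partner of the PPAR receptors (-0.40, SE 0.12, adjusted p = 0.0270, edgeR). With library totals as the only scaling its log2 fold change was 0.02. The Rxra call was lost without control-diet replicate 1 or 3 and without obese replicate 1, 2 or 3, with adjusted p from 0.0533 to 0.0776 (edgeR). Ppara, the receptor best known for switching on peroxisomal oxidation in rodents, was at 53.0, 53.0 and 44.2 CPM in cocktail hearts, 50.3, 26.0, 33.5 and 56.2 CPM in obese hearts and 48.0, 45.3, 45.1 and 44.0 CPM in control-diet hearts. Obese libraries lay on both sides of the control-diet range (-0.14, SE 0.19, adjusted p = 0.618, edgeR). Ppargc1a, a coactivator of mitochondrial and peroxisomal genes, was at 212, 215 and 193 CPM in cocktail hearts, 328, 88.7, 156 and 231 CPM in obese hearts and 177, 148, 163 and 186 CPM in control-diet hearts, with the widest spread in the obese group (0.25, SE 0.29, adjusted p = 0.542, edgeR).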

How the data were processed

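RNA from hearts was sequenced as paired reads of 150 bases, 11 libraries in all. The deposited table holds whole-number counts per Ensembl gene identifier, per the file headers and values, and these counts were used as the authors deposited them. The submitters' processing notes name cutadapt, HISAT2, StringTie and GRCm38. Not given in the sources used here are the gene models, how reads were assigned and counted, strand handling, and whether the values were estimated from coverage. Symbols and exon lengths came from a GENCODE annotation of GRCm38, which named 55227 of the 55487 identifiers.

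Counts were filtered with filterByExpr (minimum count 10, minimum total 15), scaled by TMM and fitted with edgeR 4.0.16 (R 4.3.3; robust quasi-likelihood fit, glmQLFTest) in a model of 3 groups over all 11 libraries. P-values were adjusted by Benjamini-Hochberg over 23779 genes within each comparison, with a threshold of 0.05. Standard errors were derived as the size of the log2 fold change over the root of its F statistic. The scripts were tested on simulated data. Separate animals are not stated in the labels, and the p-values therefore reflect only library-to-library spread, part of which may be technical. Within a group, libraries differed by far more than sampling noise, with 35.7 or more chi-square units per gene, and each was counted as a sample. Total depth ran from 52.7 to 103.3 M counts.

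The 28 genes and the other lists were chosen with earlier results of these data known. Values in every library are given for genes called in obese against control-diet hearts and for the 4 smallest p in cocktail against obese hearts. From the other lists the called genes with the smallest p among the first 8 are named, with Cat, Ppara and Ppargc1a whatever their p, and some genes of the wider list that this rule names are not reported here. Promoters were shown for the 2 largest falls and the 2 smallest changes, from RefSeq. Alternatives were other scalings, filters and sets of libraries, a replicate block, the intronic share as a covariate, DESeq2 1.42.0 and limma 3.58.1 voom. For the 9 receptors and coactivators they were added after the data were seen.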

Additional observations from a re-analysis of the deposited data

Results flagged for a closer look

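In groups of 4 libraries, the gap of the highest or lowest library to its nearest neighbour, as a share of the group's range, was set against Dixon's 95% critical value. Of 56 groups (28 genes in obese and control-diet hearts) 3 passed it, where chance gives about 1 in 20. Abcd2 in obese replicate 3 was at 7.57 CPM, with the other obese libraries at 3.43 to 3.93 CPM. Pex14 in control-diet replicate 2 was at 15.1 CPM, against 17.4 to 17.5 CPM in the other control-diet libraries. Abcd3 in control-diet replicate 2 was at 88.8 CPM, against 108 to 109.6 CPM in the others, and still lay above every obese library.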

How the results depend on the processing

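Of the 16 genes that fell in obese against control-diet hearts, 12 kept the call in all 11 fits that left out 1 library. In those fits the count ran from 12 to 19, and calls over all genes ran from 4917 to 8153, against 7166 with all libraries. The count was 7 with library totals as the only scaling (4 higher), where 10021 of all genes were called (9061 higher). It was 0 with the intronic share as a covariate, where 121 of all genes were called. In cocktail against obese hearts it was 0 under all alternatives run. In cocktail against control-diet hearts the main count of 10 became 5 with library totals (4 higher), 6 without a low-count filter, 0 with the intronic share, 0 without obese replicate 3 and cocktail replicates 2 and 3, and 1 to 12 without 1 library. The fit without these 3 libraries holds 1 cocktail library, whose spread is assumed to be that of the other groups, so its cocktail counts say little about processing. Over all genes, 3760 were called in cocktail against control-diet hearts in the main fit. That number became 7300 with library totals (6911 higher), 5128 with DESeq2 and 2775 without a low-count filter. It became 510 with the intronic share and 1011 to 4652 without 1 library. With the filter at a mean of 1 CPM, 6430 of 15574 genes were called in obese against control-diet hearts. For the wider list, the count of 36 in obese against control-diet hearts became 20 with library totals and 0 with the intronic share, and the count of 17 in cocktail against control-diet hearts became 3 with the intronic share, 1 without the 3 libraries named and 8 to 27 without 1 library. For the receptors and coactivators, the count of 1 in obese against control-diet hearts became 5 with library totals, 2 with the filter at a mean of 1 CPM and 0 with the intronic share or without the 3 libraries, and 0 to 1 without 1 library, and the count of 0 in cocktail against control-diet hearts became 5 with library totals, 1 with DESeq2 and 0 to 1 without 1 library. The cause was not tested. Depth limits Acaa1b most, with 606 counts over all libraries.

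Whether the replicate numbers pair the libraries is not settled. Correlations of same-numbered libraries ran from -0.23 to 0.40, and those of libraries with different numbers from -0.41 to 0.19. The highest were those of obese with cocktail replicate 1 (0.40) and replicate 3 (0.34). With the replicate block, 18 of the 28 genes were called in obese against control-diet hearts, 0 in cocktail against obese hearts and 6 in cocktail against control-diet hearts. Over all genes, the block gave 7112, 0 and 2690 calls in these comparisons, against 7166, 0 and 3760 without it. The log2 fold changes that turned sign with the block were in cocktail against obese hearts Abcd4 -0.011, Ephx2 0.069 and Pex10 0.019; in obese against control-diet hearts Acaa1b 0.0094.

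Log2 fold changes that turned sign under the other alternatives were as follows. With library totals as the only scaling they were in obese against control-diet hearts Abcd2 0.19, Acaa1a 0.17, Acaa1b 0.39, Acox3 0.33, Agps 0.12, Gnpat 0.12, Pex14 0.40, Pex5 0.18, Pex6 0.075, Pex7 0.17, Ppara 0.26 and Rxra 0.023; in cocktail against control-diet hearts Abcd2 0.38, Acaa1a 0.38, Acox3 0.31, Agps 0.060, Amacr 0.13, Crot 0.059, Decr2 0.18, Gnpat 0.26, Pex13 0.061, Pex19 0.044, Pex5 0.21, Pex6 0.26, Pex7 0.069 and Rxra 0.26. With the intronic share as a covariate they were in cocktail against obese hearts Acox3 0.041, Amacr -0.020, Cat -0.13, Crat -0.10, Far2 0.11, Gnpat -0.0070, Hsd17b4 -0.19, Hsdl2 -0.29, Nudt7 -0.12, Pex13 -0.040, Pex14 -0.022, Pex19 -0.064, Pex2 -0.12, Pex5 -0.072, Phyh -0.064, Ppargc1a -0.078 and Scp2 -0.016; in obese against control-diet hearts Amacr 0.066, Crat 0.037, Decr2 0.042, Gnpat 0.063, Pex11a 0.016, Pex14 0.25, Pex19 0.080, Pex5 0.019, Pex7 0.094 and Ppara 0.092; in cocktail against control-diet hearts Acaa1b -0.13, Amacr 0.045, Decr2 0.095, Gnpat 0.056, Pex19 0.016 and Rxra 0.070. Without obese replicate 3 and cocktail replicates 2 and 3 they were in cocktail against obese hearts Abcd3 0.029, Acox3 0.087, Ephx2 0.24, Pex10 0.060, Pex11a 0.15, Pex13 -0.072, Pex2 -0.16, Pex7 0.10 and Ppargc1a -0.016; in obese against control-diet hearts Pex14 0.026; in cocktail against control-diet hearts Abcd2 0.10, Acaa1a 0.12, Acox3 0.0083, Far1 -0.26, Gnpat 0.032 and Pex6 0.12. With upper-quartile scaling they were in cocktail against obese hearts Hsd17b4 -0.0040, Hsdl2 -0.033, Nudt7 -0.0075, Pex2 -0.014 and Pex5 -0.014; in obese against control-diet hearts Acaa1b 0.086, Acox3 0.012 and Pex14 0.086; in cocktail against control-diet hearts Abcd2 0.038 and Acaa1a 0.028. With a filter at a mean of 1 CPM they were in cocktail against obese hearts Hsdl2 -0.0090; in obese against control-diet hearts Pex14 0.049; in cocktail against control-diet hearts Abcd2 0.030 and Acaa1a 0.015. With limma voom they were in cocktail against obese hearts Far2 0.0012; in obese against control-diet hearts Acaa1b 0.013. With only the groups compared they were in obese against control-diet hearts Acaa1b 0.0085 and Pex14 0.00050; in cocktail against control-diet hearts Abcd2 0.0044. With median-of-ratios size factors they were in cocktail against obese hearts Acox3 0.00015 and Far2 3.1e-05. With DESeq2 they were in cocktail against obese hearts Far2 0.00055.

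Leaving out 1 library at a time, the log2 fold changes that turned sign ranged, in cocktail against obese hearts Abcd4 -0.019 to 0.17, Acox3 -0.063 to 0.044, Crat -0.0045 to 0.25, Ehhadh -0.31 to 0.38, Ephx2 -0.17 to 0.14, Far2 -0.11 to 0.077, Hsd17b4 -0.036 to 0.16, Hsdl2 -0.12 to 0.18, Nudt7 -0.10 to 0.18, Pex10 -0.12 to 0.053, Pex11a -0.23 to 0.074, Pex16 -0.10 to 0.28, Pex2 -0.071 to 0.13, Pex5 -0.021 to 0.075, Pex7 -0.22 to 0.022 and Ppargc1a -0.20 to 0.38; in obese against control-diet hearts Acaa1b -0.15 to 0.089, Pex14 -0.12 to 0.032, Pex26 -0.010 to 0.11, Ppara -0.34 to 0.035 and Ppargc1a -0.088 to 0.50; in cocktail against control-diet hearts Abcd2 -0.16 to 0.082, Acaa1a -0.11 to 0.0065, Far1 -0.042 to 0.18, Pex10 -0.027 to 0.15 and Pex14 -0.011 to 0.081.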
